A study of Mus musculus with 12 samples.

Results

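Histone demethylases, histone methyltransferases and zinc-dependent histone deacetylases were described across the nuclei of mouse motor cortex. The members were all genes whose symbol is Kdm, Kmt or Hdac followed by a digit, without antisense or Rik entries, and with at least 100 UMIs (unique molecular identifiers, each counting 1 captured RNA molecule). All 37 candidates among the 31053 genes of the matrix met this rule, from 1111 UMIs for Hdac10 to 120240 UMIs for Hdac9. They were 4 class I deacetylases (Hdac1, Hdac2, Hdac3 and Hdac8), 4 class IIa deacetylases (Hdac4, Hdac5, Hdac7 and Hdac9), 2 class IIb deacetylases (Hdac6 and Hdac10), the class IV deacetylase Hdac11, 5 methyltransferases of the Kmt2 family, 3 of the Kmt5 family, and the demethylases Kdm1a to Kdm8.

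The tissue was right primary motor cortex, at its caudal forelimb area, of 6 mice aged 13 weeks, and the RNA of single nuclei was sequenced from droplets with 3′ capture. Every mouse was on restricted water, 1 mL per day, given at home for the first 10 days. Control mice 1, 3 and 5 stayed on this schedule without motor training. Trained mice 2, 4 and 6, head-fixed, learned a left-paw lever press from day 11 to day 13, in sessions of 100 trials. The sources used here give no strain, genotype or sex. Head fixation and training came together in the trained group, so that they cannot be told apart.

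Lysine demethylases remove methyl groups from histone tails: the KDM1 enzymes use FAD, and the others carry a jumonji domain that needs oxygen, iron and 2-oxoglutarate. Most KMT2 enzymes place the activating methyl mark of promoters and enhancers in COMPASS complexes, while Kmt2e is not known to methylate histones itself, and the KMT5 enzymes methylate histone H4 in compacted chromatin. Class I deacetylases are the catalytic cores of nuclear corepressor complexes. Class IIa deacetylases have little activity of their own, bind MEF2 transcription factors and leave the nucleus of a neuron when calcium-dependent kinases phosphorylate them. Mutations of several members, among them KDM5C, KMT2D, KDM6A and HDAC4, are known from human intellectual disability syndromes.

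The matrix held 46798359 to 91495029 UMIs per mouse, and median UMIs per nucleus lay between 5215 and 7205. Of 51926 barcodes, 49292 nuclei were kept, and 311 barcode sequences of 51613 occurred in more than 1 mouse. Clustering without the members gave 19 classes with at least 20 nuclei in every mouse, from 275 nuclei (endothelial) to 6061 (astrocyte). Names stand for "-like": IT, ET, NP and CT mean intratelencephalic, extratelencephalic, near-projecting and corticothalamic. A cluster with tied markers is called L4/5 IT or L5 IT, and 1 glutamatergic cluster without a marker name is called after Scn7a, 1 of its leading genes. A further 436 nuclei stayed unnamed, 402 of them from trained mouse 6. Mitochondrial UMIs made up 0.0391% to 0.0556% in the control mice and 0.0533% to 0.109% in the trained mice, highest in trained mouse 2. Values are CPM, UMIs scaled to a common total per sum of nuclei, and levels are compared between classes or mice of 1 gene, not between genes.

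The 250 bases before each annotated start were read for every member with an entry. RefSeq entries on GRCm38.p6 covered 27 of the 37 members with 40 windows, and no window was used for Hdac1, Hdac3, Hdac10, Kdm2a, Kdm3b, Kdm4b, Kdm5a, Kdm6b, Kmt2b and Kmt2e. Both strands were searched for CGTCA (the core of the cAMP response element, TGACG on the other strand), TGANTCA (the AP-1 site) and GCGNGGGCG (the EGR site). The CRE core was in 10 of the 40 windows (25.0%), from 8 members, beside 17.8% of 32851 mouse promoter windows of this length. The AP-1 site was in 4 windows (10.0%, beside 6.75%) and the EGR site in 5 (12.5%, beside 4.70%). Some windows belong to 1 gene and overlap. The windows of 4 members follow, 5′ to 3′ on the strand of the gene, with motif letters in capitals: Kdm5b (chr1:134559928-134560177, plus strand) and Hdac4 (chr1:92180342-92180591, minus strand), the members that stood furthest apart between trained and control astrocytes, and Kdm7a (chr6:39206774-39207023, minus strand) and Hdac5 (chr11:102230173-102230422, minus strand), which were higher in neurons with immediate early RNA.
Kdm5b: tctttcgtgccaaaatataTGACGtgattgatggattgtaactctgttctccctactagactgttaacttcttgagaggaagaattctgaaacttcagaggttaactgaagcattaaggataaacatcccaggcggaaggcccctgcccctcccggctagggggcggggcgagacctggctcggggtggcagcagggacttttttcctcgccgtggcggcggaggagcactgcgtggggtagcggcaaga
Hdac4: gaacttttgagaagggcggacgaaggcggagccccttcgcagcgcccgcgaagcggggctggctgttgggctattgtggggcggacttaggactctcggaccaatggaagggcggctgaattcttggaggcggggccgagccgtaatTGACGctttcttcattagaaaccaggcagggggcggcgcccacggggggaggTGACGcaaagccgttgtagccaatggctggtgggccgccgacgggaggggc
Kdm7a: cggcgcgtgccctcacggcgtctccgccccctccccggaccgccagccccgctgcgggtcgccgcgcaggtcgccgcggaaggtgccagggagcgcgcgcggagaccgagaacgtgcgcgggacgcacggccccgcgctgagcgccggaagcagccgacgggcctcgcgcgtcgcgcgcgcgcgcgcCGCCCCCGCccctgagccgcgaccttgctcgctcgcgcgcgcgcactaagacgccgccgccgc
Hdac5: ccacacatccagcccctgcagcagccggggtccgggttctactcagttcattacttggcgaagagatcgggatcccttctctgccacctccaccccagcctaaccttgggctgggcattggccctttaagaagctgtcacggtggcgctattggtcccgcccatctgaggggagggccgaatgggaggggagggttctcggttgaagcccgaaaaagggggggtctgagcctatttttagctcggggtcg
The Kdm5b window held 1 CRE core and the Hdac4 window 2, all in the TGACG orientation. The Hdac4 window lies inside the gene body of the longest annotated transcript, upstream of an inner start. The Kdm7a window held the EGR letters on the other strand, and the Hdac5 window held none of the 3 motifs. A match describes letters and says nothing of binding. The genes themselves lie at chr1:134560171-134635285, plus strand (Kdm5b), chr1:91928779-92195699, minus strand (Hdac4), chr6:71588972-71632990, minus strand (Kdm3a), chr11:69398508-69413675, minus strand (Kdm6b), chr6:39136623-39206789, minus strand (Kdm7a) and chr11:102194432-102230166, minus strand (Hdac5), all on mm10.

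Each class was first compared with all other nuclei of the same mice. Highest, next and lowest levels are among the 19 fitted classes, those with at least 20 nuclei in every mouse. Astrocytes stood out for the class I deacetylase Hdac8, the demethylase Kdm5b and the methyltransferase Kmt2c. Oligodendrocytes stood out for Kdm4a, Kmt5a, Kdm6a and Hdac11 and had the lowest mean levels of Hdac9, Kdm7a, Hdac4 and Kdm6b. Hdac9 was high in Vip, Lamp5, L2/3 IT and L5 ET nuclei and low in the 2 deep classes L6 IT and L6 CT. By edgeR's quasi-likelihood test with mouse as a block, 408 of 703 member and class pairs passed an adjusted p of 0.05 (218 higher, 190 lower), which is 58.0% beside 59.3% of all gene tests (26.1% higher, 33.2% lower), a share near that of all genes.

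**Figure D1:**
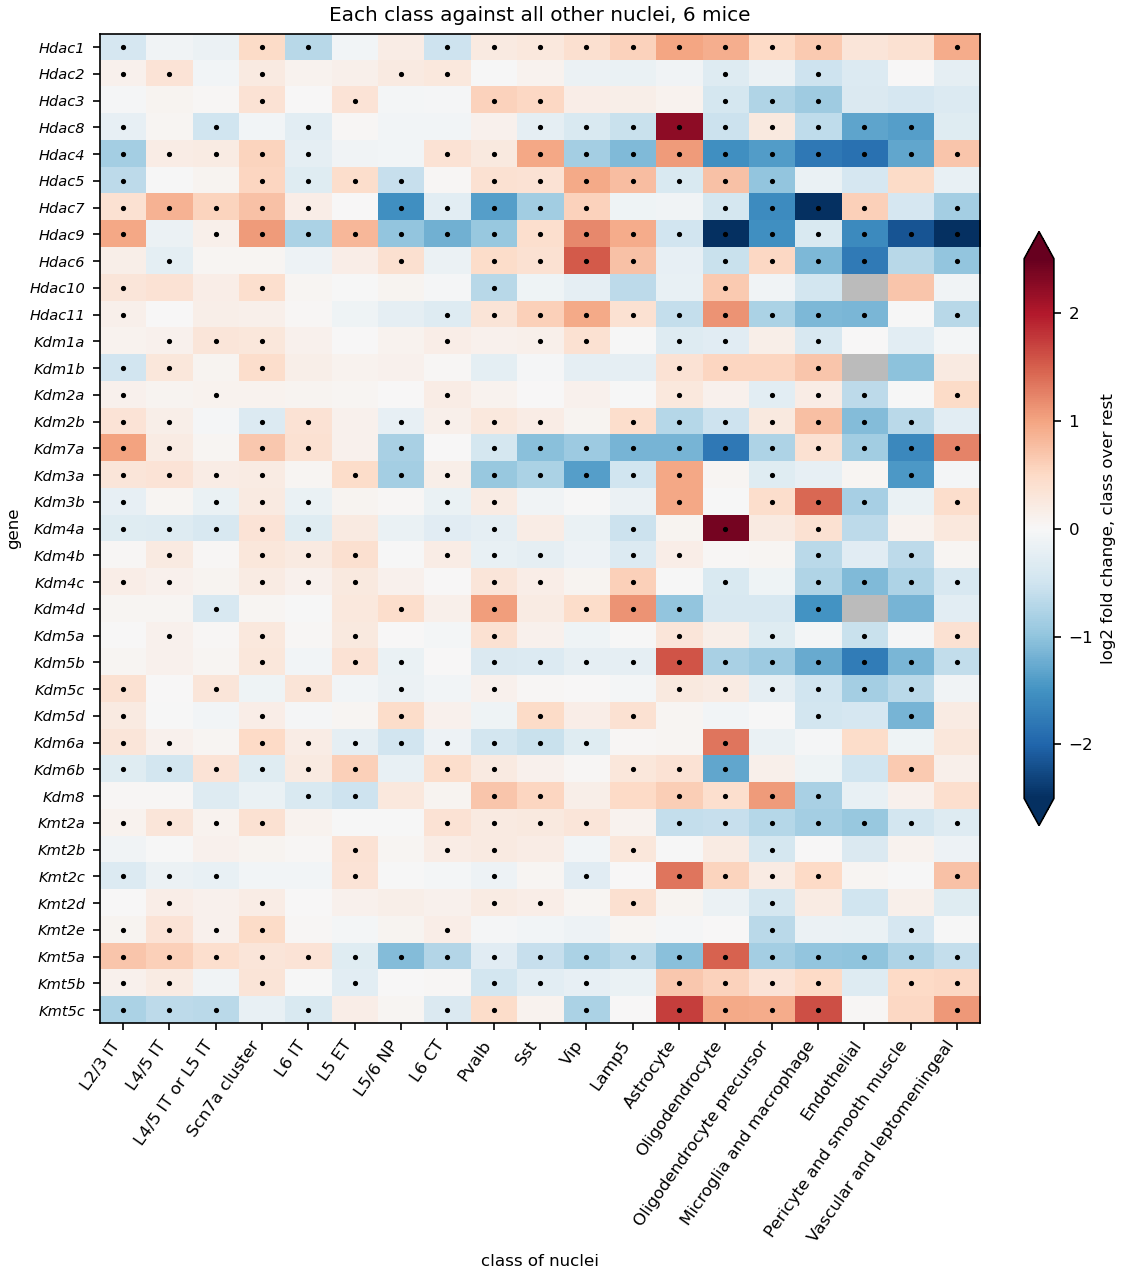
Log2 fold of each of the 37 members (rows, by family) in each of 19 classes (columns) over all other nuclei, edgeR with mouse as a block, n = 6 mice. A dot marks an adjusted p under 0.05 and grey a pair with 3 or fewer UMIs, and among the strongest colours are Hdac9 in oligodendrocytes and in vascular and leptomeningeal nuclei, Hdac7 in microglia, Hdac8 in astrocytes and Kdm4a in oligodendrocytes.

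Among the class I deacetylases, Hdac8, on the X chromosome, had the widest range over classes. Its level in astrocytes was 604 CPM in the lowest, 760.2 CPM in the median and 987 CPM in the highest mouse, and the class with the next highest mean, oligodendrocyte precursors, had 274 ± 48.4 CPM (SD, n = 6 mice). The log2 fold of astrocytes over the rest was 2.24 ± 0.08 (SE, adjusted p = 1.47e-15 by edgeR). In L4/5 IT or L5 IT nuclei the fold was -0.50 ± 0.03, at 119 ± 10.7 CPM. Hdac1, the partner of Hdac2 in the Sin3, NuRD and CoREST complexes, was called higher in 10 classes and lower in 3. Its largest fold was in astrocytes (0.99 ± 0.09) and its lowest in L6 IT (-0.70 ± 0.09, at 10.8 ± 1.85 CPM). Hdac2 and Hdac3, the catalytic subunit of the NCoR complex, varied less: log2 folds ran from -0.53 to 0.34 for Hdac2 and from -0.90 to 0.57 for Hdac3. The lowest fold of Hdac2, in microglia, changed sign to 0.15 when scaled by library size only.

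Among the class IIa deacetylases, Hdac9 in Vip nuclei was at 611 CPM in the lowest, 662 CPM in the median and 854 CPM in the highest mouse. Over the 6 mice it was at 504 to 692 CPM in Lamp5 nuclei and at 21.7 to 56.7 CPM in oligodendrocytes, so that these 3 classes did not overlap between neurons and oligodendrocytes. Log2 folds over the rest were 1.21 ± 0.07 in Vip, 0.93 ± 0.06 in Lamp5, 1.07 ± 0.04 in the Scn7a cluster, 0.97 ± 0.04 in L2/3 IT and 0.82 ± 0.05 in L5 ET. They were -0.78 ± 0.04 in L6 IT, -1.20 ± 0.05 in L6 CT, -1.53 ± 0.08 in oligodendrocyte precursors, -2.15 ± 0.16 in pericyte and smooth muscle nuclei, -3.06 ± 0.10 in oligodendrocytes and -3.07 ± 0.20 in vascular and leptomeningeal nuclei. Within glutamatergic neurons the mice of L2/3 IT (373 to 567 CPM) and L6 CT (104 to 165 CPM) did not overlap.

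Hdac4, known to shuttle between nucleus and cytoplasm, was in Sst interneurons at 174 CPM in the lowest, 213 CPM in the median and 232 CPM in the highest mouse, a log2 fold of 0.96 ± 0.05. It was also higher in astrocytes (1.06 ± 0.18) and in vascular and leptomeningeal nuclei (0.70 ± 0.15), where its spread over mice was large (241 ± 139.6 CPM and 249 ± 85.7 CPM, SD, n = 6). Log2 folds were -0.86 ± 0.05 in L2/3 IT, -1.10 ± 0.08 in Lamp5, -1.78 ± 0.11 in microglia and -1.87 ± 0.27 in endothelial nuclei. Hdac7, known for keeping endothelial junctions intact, was at 139 ± 33.4 CPM in endothelial nuclei, on 90 UMIs in all, a fold of 0.60 ± 0.22. Among neurons it was higher in L4/5 IT (74.6 to 108 CPM over mice, 0.87 ± 0.06), in the Scn7a cluster (0.73 ± 0.06) and in L4/5 IT or L5 IT (0.55 ± 0.04). It was lower in Pvalb (18.3 to 25.3 CPM, -1.37 ± 0.07), L5/6 NP (-1.54 ± 0.10) and Sst (-0.87 ± 0.07). Microglia held only 19 Hdac7 UMIs, for a log2 fold of -4.34 ± 0.22. Hdac5 had its largest fold in Vip nuclei, at 0.95 ± 0.10.

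Among the remaining deacetylases, Hdac6, a cytoplasmic tubulin deacetylase, was at 29.6 to 45.1 CPM over mice in Vip nuclei, a log2 fold of 1.53 ± 0.11, and Lamp5 came next by level with 23.2 ± 3.70 CPM. Hdac11, which removes long acyl groups, was higher in oligodendrocytes (50.7 to 63.6 CPM over mice, 1.13 ± 0.08) and in Sst (0.60 ± 0.07). Hdac10, a polyamine deacetylase, was the sparsest member, and endothelial nuclei held 0 of its UMIs.

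Among the demethylases, Kdm4a, which acts on repressive and elongation marks, was in oligodendrocytes at 72.5 CPM in the lowest, 81.5 CPM in the median and 90.3 CPM in the highest mouse, and microglia came next with 34.2 ± 8.70 CPM. Its log2 fold in oligodendrocytes was 2.40 ± 0.08 (adjusted p = 2.37e-24 by edgeR). Kdm6a, the X-linked demethylase of the Polycomb mark, was also higher there (170.3 to 220.1 CPM over mice, 1.33 ± 0.07), while its paralog Kdm6b was lowest there (13.7 ± 4.28 CPM, -1.31 ± 0.12). Kdm6b was higher in L5 ET (0.61 ± 0.06), L6 CT (0.44 ± 0.07) and pericyte and smooth muscle nuclei (0.66 ± 0.21), and lower in L4/5 IT (-0.46 ± 0.07) and the Scn7a cluster (-0.30 ± 0.08). Kdm6b overlaps its antisense gene Kdm6bos, and the use of strand in the counting is not given in the sources used here. Whether reads of Kdm6bos were counted for Kdm6b was not tested. The same holds for Hdac4, Hdac7, Hdac11, Kdm1a, Kdm1b, Kdm2b, Kdm3b, Kdm4c, Kdm5a, Kdm7a, Kmt2a and Kmt2e, which each overlap another gene on the opposite strand.

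Kdm7a, a plant homeodomain demethylase of repressive marks, was higher in some intratelencephalic neurons and lower in several interneuron classes. It was at 158 to 192 CPM over mice in L2/3 IT (log2 fold 1.00 ± 0.03) and was also higher in L6 IT (0.38 ± 0.04). Its folds were -1.04 ± 0.05 in Sst (51.3 to 60.3 CPM), -0.91 ± 0.08 in Vip (54.1 to 67.2 CPM) and -1.17 ± 0.08 in Lamp5. Outside neurons it was high in vascular and leptomeningeal nuclei (366 ± 125 CPM, 1.25 ± 0.16) and low in oligodendrocytes (-1.78 ± 0.09), pericyte and smooth muscle nuclei (-1.62 ± 0.19) and astrocytes (-1.16 ± 0.08). Kdm2b, which recruits Polycomb to CpG islands, was highest in microglia (136 ± 32.9 CPM, 0.76 ± 0.10). Kdm3b, a demethylase of the repressive dimethyl mark, was also highest in microglia (230.2 to 279.8 CPM over mice, 1.43 ± 0.08). Its paralog Kdm3a had its largest fold in astrocytes (0.96 ± 0.12) and low in Vip (-1.37 ± 0.10) and Pvalb (-0.95 ± 0.06). The astrocyte values of Kdm3a, Kdm5b and Hdac4 pool mice that differ by training: the mean for Kdm3a was 88.6 CPM in controls and 159 CPM in trained mice, and for Kdm3a astrocytes were not clear of the next class by both SDs.

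Kdm5b is one of the demethylases that erase the activating promoter mark. In astrocytes it was at 207 CPM in the lowest, 313 CPM in the median and 457 CPM in the highest mouse. Its next highest mean among the fitted classes was in L5 ET, at 122 ± 7.33 CPM. Its astrocyte fold was 1.56 ± 0.13, while the highest folds of Kdm5a, Kdm5c and the Y-linked Kdm5d in any class were 0.39, 0.38 and 0.48. Kdm4d was higher in Lamp5 (1.12 ± 0.17) and Pvalb (1.05 ± 0.11) interneurons at 17.2 ± 1.67 CPM and 14.9 ± 4.06 CPM, and Kdm4c was also highest in Lamp5 (208 to 258 CPM over mice, 0.60 ± 0.06). Among the FAD-dependent enzymes, log2 folds of Kdm1a ran from -0.40 to 0.39, and Kdm1b was highest in microglia (0.70 ± 0.21). The lowest Kdm1a fold, also in microglia, changed sign to 0.28 when scaled by library size only. Kdm8 was called higher in oligodendrocyte precursors (1.07 ± 0.25) and Pvalb (0.69 ± 0.13).

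Among the methyltransferases, Kmt5a, which places the first methyl group on histone H4, was in oligodendrocytes at 77.0 CPM in the lowest, 84.2 CPM in the median and 98.5 CPM in the highest mouse, a log2 fold of 1.48 ± 0.08. It was also higher in L4/5 IT (33.9 to 42.0 CPM over mice, 0.60 ± 0.05) and lower in L5/6 NP (10.6 to 19.9 CPM, -1.09 ± 0.12), in L6 CT (-0.73 ± 0.06) and in astrocytes (-1.05 ± 0.10). Kmt5c, which adds further methyl groups in heterochromatin, had folds of 1.74 ± 0.11 in astrocytes and 1.61 ± 0.18 in microglia. Its folds were -0.79 ± 0.11 in L2/3 IT, at 3.35 ± 0.779 CPM, and -0.65 ± 0.13 in L4/5 IT. Kmt2c, an enhancer methyltransferase, was highest in astrocytes (358 to 456 CPM over mice, 1.34 ± 0.07) and lowest in L2/3 IT (122 ± 9.86 CPM, -0.35 ± 0.04). The highest folds of the other Kmt2 members were 0.37 ± 0.05 for Kmt2a and 0.48 ± 0.04 for Kmt2e, both in the Scn7a cluster, 0.37 ± 0.08 for Kmt2b in L5 ET and 0.39 ± 0.10 for Kmt2d in Lamp5. The astrocyte values of Kmt2c, Kdm3a, Hdac1 and Hdac4, the oligodendrocyte values of Kdm6a, Kdm6b and Hdac11 and the remaining values outside the naming rule were chosen after they had been seen.

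Classes were also ranked by mean CPM over the 19 fitted classes, without the small classes of differentiating oligodendrocytes and L6b neurons. In this ranking the highest class stood clear of the next by both SDs in 10 of the 37 members. These were Hdac8 and Kdm5b (astrocytes), Hdac7 (endothelial), Hdac6 (Vip), Kdm2b and Kdm3b (microglia), and Kdm4a and Kmt5a (oligodendrocytes). Kdm4c (Lamp5) and Kdm6b (pericyte and smooth muscle) were also among them. The ranked levels are scaled by library size. For Hdac7 the fitted folds over the rest, scaled by TMM, gave another order. They were largest in L4/5 IT (0.87), and endothelial nuclei had 0.60, or 1.37 by library size. For the other 27 the order of the top classes was within the spread of the mice. Scaling by library size in place of TMM moved the median of all genes by over 0.1 in 15 of 19 classes, by -0.27 in the Scn7a cluster to 0.77 in endothelial nuclei. The count of member calls became 431 (216 higher, 215 lower), and 44 of the 408 calls changed direction, none of them among the 75 pairs of the naming rule. In the Scn7a cluster 25 higher and 2 lower calls became 8 and 9. In vascular and leptomeningeal nuclei 9 higher and 8 lower became 19 and 1.

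Training was then tested within each class, 3 trained against 3 control mice. Of 627 member and class pairs, 1 passed, Kdm5b in astrocytes, where 24 of 12304 genes (0.195%) passed. Over the 19 classes together 0.0141% of all gene tests passed. In sums of all nuclei, none of the 37 members passed: the count was 0 by edgeR, 0 at an unadjusted p under 0.05 and 0 by DESeq2. Of the 627 pairs, 19 had an unadjusted p under 0.05, beside 4.04% of all gene tests, and in 69 (11.0%) the trained and control mice did not overlap, beside 9.37% of all gene tests. In astrocytes 4 of 36 members lay higher without overlap, beside 7.13% of all genes, and 1 lower, beside 6.68%. In all nuclei 0% of genes passed.

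Astrocyte sums of control mice 1, 3 and 5 held Kdm5b at 215, 248 and 202 CPM, and those of trained mice 2, 4 and 6 held it at 466, 376 and 453 CPM. The lowest trained mouse lay above the highest control mouse. The means were 222 ± 23.9 and 432 ± 48.5 CPM (SD, n = 3 each), a log2 fold of 0.96 ± 0.13 (SE) with an adjusted p = 0.00608 by edgeR. The mice gave between 625 and 1409 Kdm5b UMIs each. The adjusted p by edgeR was 0.0799 with the mitochondrial percent of the mouse as a covariate, 0.0555 without control mouse 1 and 0.0917 without control mouse 5, while the log2 fold stayed between 0.89 and 1.05 when mice were left out.

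Hdac4 and Kdm3a in astrocytes had the next smallest adjusted p-values, and neither passed. Hdac4 was at 142, 168 and 126 CPM in the controls and at 506, 204 and 322 CPM in the trained mice. Its log2 difference was 1.24 ± 0.24 (adjusted p = 0.0525 by edgeR). The 3 trained mice lay above all controls, and trained mouse 2 stood far above trained mouse 4. Without trained mouse 2 the difference was 0.84, with the mitochondrial percent as a covariate 0.66, and without trained mouse 4 it was 1.50 with an adjusted p = 0.00125 by edgeR. Kdm3a, known to rise in hypoxia, was at 86.9, 97.0 and 81.8 CPM in the controls and at 136, 131 and 209 CPM in the trained mice, again without overlap. Its log2 difference was 0.83 ± 0.17 with an adjusted p = 0.0627 by edgeR, and DESeq2 gave an adjusted p = 0.00246. Without trained mouse 6 the difference was 0.58, and without trained mouse 4 it passed (adjusted p = 0.0208 by edgeR).

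**Figure D2:**
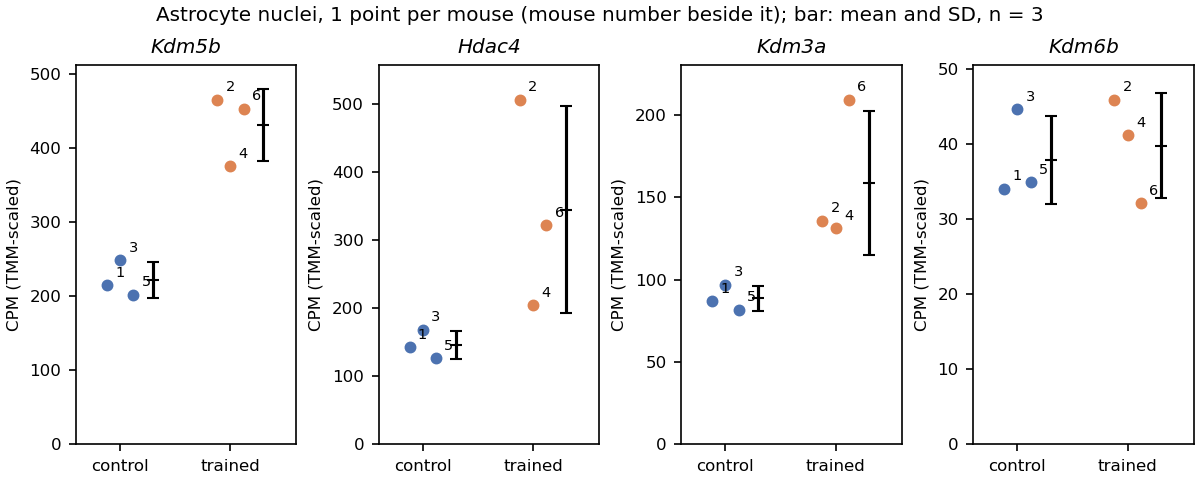
CPM of Kdm5b, Hdac4, Kdm3a and Kdm6b in astrocyte sums, 1 point per mouse, with mean and SD of 3 control and 3 trained mice. The trained mice lie above every control mouse for Kdm5b (376 to 466 against 202 to 248 CPM), Hdac4 and Kdm3a, and the groups overlap for Kdm6b.

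Other measures also moved with the groups in astrocytes. Of the immediate early genes, transcribed within minutes of a stimulus, 5 of 23 tested passed, all higher in trained mice: Nr4a2 (3.27 ± 0.48), Nr4a3 (2.80 ± 0.42), Klf4 (2.04 ± 0.36), Cyr61 (1.33 ± 0.18) and Btg2 (1.07 ± 0.18). Nr4a2 was at 2.31, 2.95 and 3.23 CPM in the controls and at 48.3, 10.7 and 21.1 CPM in the trained mice, highest in trained mouse 2 as Hdac4 was. Of 14 glucocorticoid response genes, Ddit4, an inhibitor of mTOR signalling, passed (0.88 ± 0.14, 48.9 ± 1.76 against 90.5 ± 12.0 CPM). The share of astrocyte nuclei with 3 or more immediate early UMIs at equal depth was 5.27%, 10.2% and 9.49% for control mice and 15.4%, 17.0% and 9.42% for trained mice, so the groups overlapped. The summed level of 12 astrocyte markers, none at 0, was 22554 to 24994 CPM in controls and 21772 to 25523 CPM in trained mice. Of 24 marker lists of other cell types, 0 were higher and 8 lower in every trained mouse than in every control, for example oligodendrocyte markers at 93.5 to 127 against 130 to 153 CPM. The part of the mitochondrial share, the marker sums and the immediate early genes in the astrocyte differences was not tested.

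Whether these differences were larger in astrocytes than in the other nuclei of the same mice was tested by the interaction of class and training. It passed for 3 of 703 member and class pairs, all in astrocytes, where 0.503% of all genes passed (0.105% over all classes). The difference of log2 folds was 1.21 ± 0.17 for Hdac4 (adjusted p = 6.05e-05 by edgeR), 0.90 ± 0.13 for Kdm5b (7.91e-05) and 0.71 ± 0.16 for Kdm3a (0.0236). For Kdm3a the call was lost without control mouse 1 (adjusted p = 0.0974 by edgeR), without trained mouse 6 (0.46, adjusted p = 0.339) and with library size scaling (adjusted p = 0.0538). The next smallest adjusted p by edgeR was 0.0675, for Hdac9 in Vip nuclei (0.40 ± 0.11). The other nuclei enter as 1 sum of UMIs per mouse, in which deeper nuclei weigh more. The interaction fit gives each gene a single spread, shared by the sums of the class and the larger sums of all other nuclei. Its SE for Hdac4, 0.17, lies below the 0.24 of the training fit within astrocytes, where Hdac4 did not pass.

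**Figure D3:**
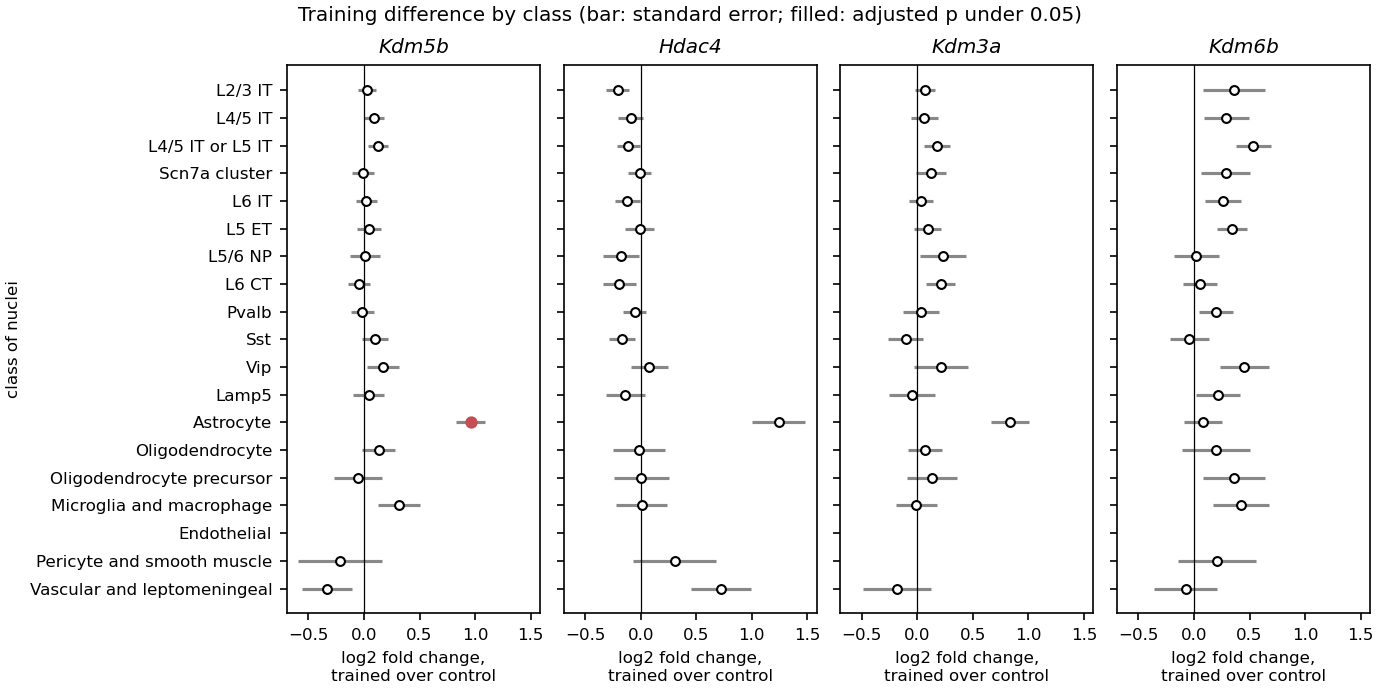
Log2 fold of trained over control mice with its SE for Kdm5b, Hdac4, Kdm3a and Kdm6b in each class tested, n = 3 mice per group. The filled point is the only call, Kdm5b in astrocytes at 0.96, and the Kdm6b points lie above 0 in 16 of 18 classes without a call.

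Outside astrocytes, the Kdm5b log2 difference lay between -0.33 ± 0.22 in vascular and leptomeningeal nuclei and 0.32 ± 0.19 in microglia, and passed in no class. In L2/3 IT it was at 102 ± 1.80 and 103 ± 4.09 CPM in control and trained mice (SD, n = 3 each), a difference of 0.03 ± 0.08. In L5/6 NP and the Scn7a cluster the difference was 0.01 ± 0.13 and -0.01 ± 0.10. In sums of all nuclei it was at 107 ± 2.37 and 119 ± 5.16 CPM, a difference of 0.15 that did not pass.

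Kdm6b, known as an inducible demethylase, passed in no class. Its log2 difference was above 0 in 16 of 18 classes, with a median of 0.24, and all classes share the same 6 mice, so that they are not independent. In L4/5 IT or L5 IT nuclei it was at 23.5, 33.5 and 23.6 CPM in the controls and at 43.6, 37.3 and 35.9 CPM in the trained mice, without overlap. The difference there was 0.54 ± 0.16 (adjusted p = 0.561 by edgeR). In L5 ET it was 0.35 ± 0.13, again without overlap (31.0, 39.2 and 32.5 against 44.1, 44.4 and 42.0 CPM). The value was 0.36 ± 0.28 in L2/3 IT, 0.29 ± 0.20 in L4/5 IT, 0.45 ± 0.22 in Vip, 0.42 ± 0.25 in microglia, 0.05 ± 0.16 in L6 CT, 0.02 ± 0.21 in L5/6 NP, -0.04 ± 0.18 in Sst and 0.08 ± 0.17 in astrocytes.

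The other pairs of smallest p were spread over families, and none passed. Kdm7a in the Scn7a cluster was at 119.9, 133 and 113 CPM in controls and at 169, 168 and 157 CPM in trained mice (0.43 ± 0.10, adjusted p = 0.682 by edgeR), without overlap. Its value was 0.25 ± 0.10 in L4/5 IT or L5 IT nuclei. Kdm8 in Sst was at 5.47, 5.62 and 6.19 CPM in controls and 10.9, 8.57 and 11.6 CPM in trained mice (0.85 ± 0.27), on between 15 and 33 UMIs per mouse. The log2 difference was 0.33 ± 0.12 for Kdm4b in L6 IT, -0.34 ± 0.12 for Kmt2d in L2/3 IT, -0.66 ± 0.24 for Kdm1b in the Scn7a cluster and 0.72 ± 0.27 for Hdac4 in vascular and leptomeningeal nuclei. Kmt2d, an enhancer methyltransferase, had a log2 difference above 0 in 1 of 17 classes (median -0.11), and Kmt2e in 3 of 19 (median -0.10). Kdm5c, X-linked like Kdm6a, was above 0 in 16 of 19 (median 0.10) and Kdm6a in 4 of 19 (median -0.12). These sign counts were picked among the 37 members after their values had been seen, and the classes share the same mice.

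Of the demethylases outside the rule (154 gene and class tests), other methyltransferases (611), sirtuins (112), acetyltransferases (232), corepressor subunits (507), COMPASS subunits (197) and MEF2 and class IIa partners (301), 0 passed between trained and control mice in any class. The median log2 differences of these lists lay between -0.02 and 0.09. The mitochondrially encoded genes had a median of 0.76 over 167 tests with 0 passing.

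Nuclei of the same mouse and class were also compared by their immediate early RNA. Nuclei with 3 or more UMIs of 30 immediate early genes after thinning to 2000 UMIs are called activity-high, and nuclei with 0 silent; the list holds no member. Kdm6b, Kdm7a, Hdac5 and Kmt2a were higher in activity-high neurons of several glutamatergic classes. Lower calls were made for Hdac9, Kdm6a, Kmt2c, Kmt5a, Kdm4c and Hdac8, and none of these held under all alternative settings. By edgeR with mouse as a block, 41 of 300 member and class pairs passed (21 higher, 20 lower), 13.7% against 12.5% of all gene tests, where 7.61% were higher and 4.93% lower. The share was 8 of 35 members in L2/3 IT (15.5% of all genes), 8 of 33 in L6 IT (16.6%) and 7 of 35 in L6 CT (25.0%).

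**Figure D4:**
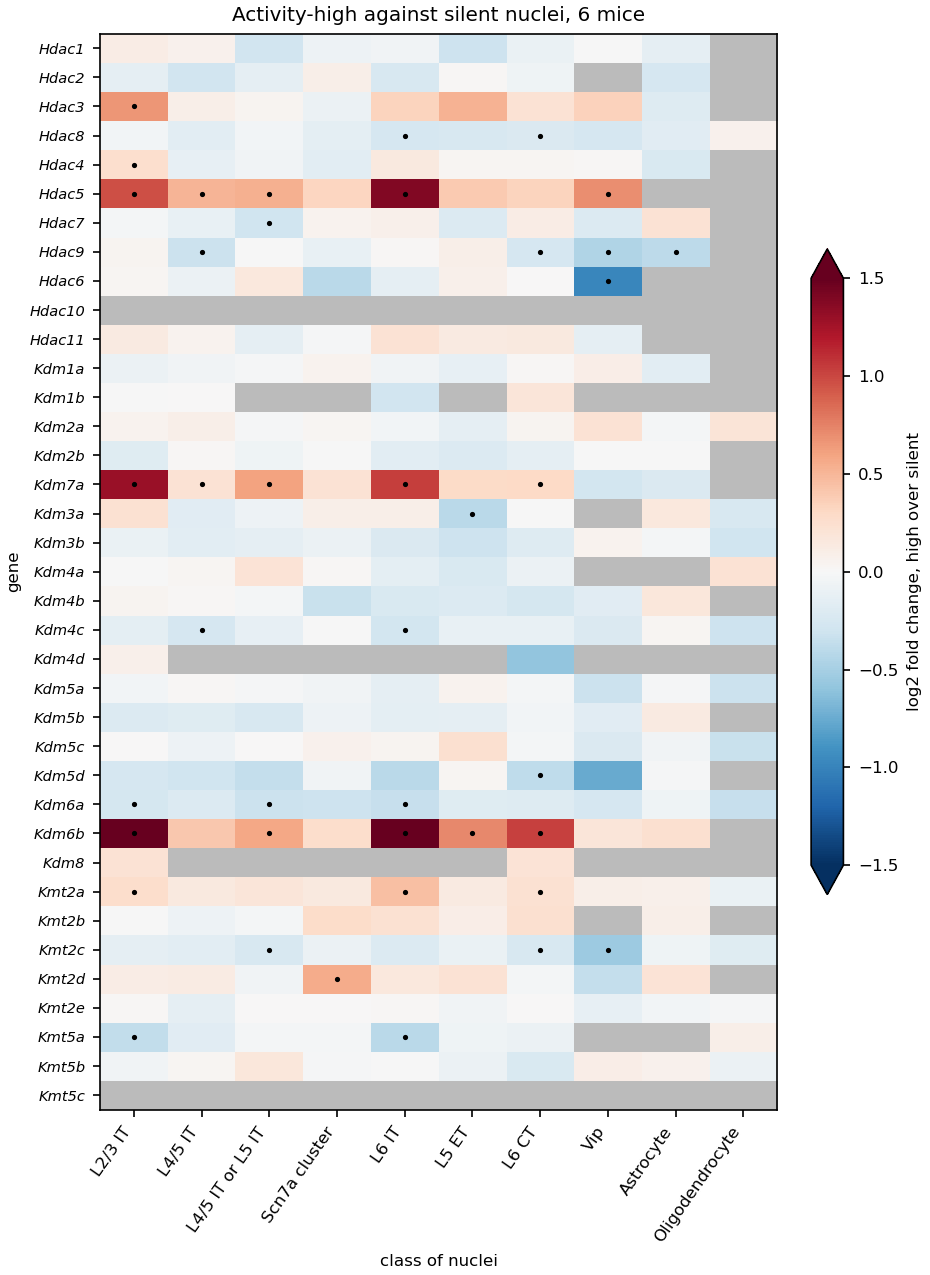
Log2 fold of activity-high over silent nuclei for the 37 members (rows) in 10 classes (columns), edgeR with mouse as a block, n = 6 mice. A dot marks an adjusted p under 0.05 and grey a pair not tested, and Kdm6b, Kdm7a and Hdac5 form the strongest colours, in L2/3 IT and L6 IT.

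Among the demethylases, Kdm6b moved furthest. In L2/3 IT it was at 7.74 CPM in the lowest, 12.4 CPM in the median and 23.9 CPM in the highest mouse among silent nuclei and at 21.0, 46.0 and 59.2 CPM among activity-high nuclei. It was higher in 6 of 6 mice, with a log2 fold of 1.66 ± 0.14 (SE, adjusted p = 3.91e-13 by edgeR). In L6 IT the mice did not overlap between silent and activity-high nuclei, at 13.8 to 24.8 against 29.9 to 79.0 CPM (1.61 ± 0.15). The fold was 1.03 ± 0.12 in L6 CT (22.7 to 28.5 against 45.0 to 62.2 CPM), 0.72 ± 0.14 in L5 ET and 0.58 ± 0.13 in L4/5 IT or L5 IT. In astrocytes the value was 0.24 ± 0.21 and did not pass.

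Kdm7a in L2/3 IT did not overlap between silent and activity-high nuclei (109.9 to 135 against 234 to 358 CPM) and had the smallest adjusted p of all member and class pairs (1.90e-22 by edgeR, log2 fold 1.29 ± 0.06). The fold was 1.04 ± 0.09 in L6 IT (87.8 to 109 against 140.5 to 294 CPM), 0.60 ± 0.08 in L4/5 IT or L5 IT, 0.30 ± 0.08 in L6 CT and 0.22 ± 0.08 in L4/5 IT. Of the class IIa deacetylases, Hdac5 was higher in activity-high nuclei of L2/3 IT (8.87 to 13.4 against 17.4 to 28.8 CPM, 0.97 ± 0.15) and of L6 IT (6.91 to 13.5 against 15.8 to 39.7 CPM, 1.39 ± 0.18), without overlap. Its fold was 0.69 ± 0.22 in Vip, 0.54 ± 0.16 in L4/5 IT or L5 IT and 0.51 ± 0.17 in L4/5 IT. Kmt2a, a methyltransferase needed for memory in mice, was higher in L6 IT without overlap (124 to 167 against 173 to 225 CPM, 0.46 ± 0.07), and its fold was 0.26 ± 0.06 in L2/3 IT and 0.23 ± 0.06 in L6 CT. Hdac3 (12.3 to 21.5 against 23.4 to 30.8 CPM, 0.66 ± 0.13) and Hdac4 (0.25 ± 0.08) were called in L2/3 IT, and Kmt2d in the Scn7a cluster (0.56 ± 0.17). Whether these folds differ between classes was not tested.

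**Figure D5:**
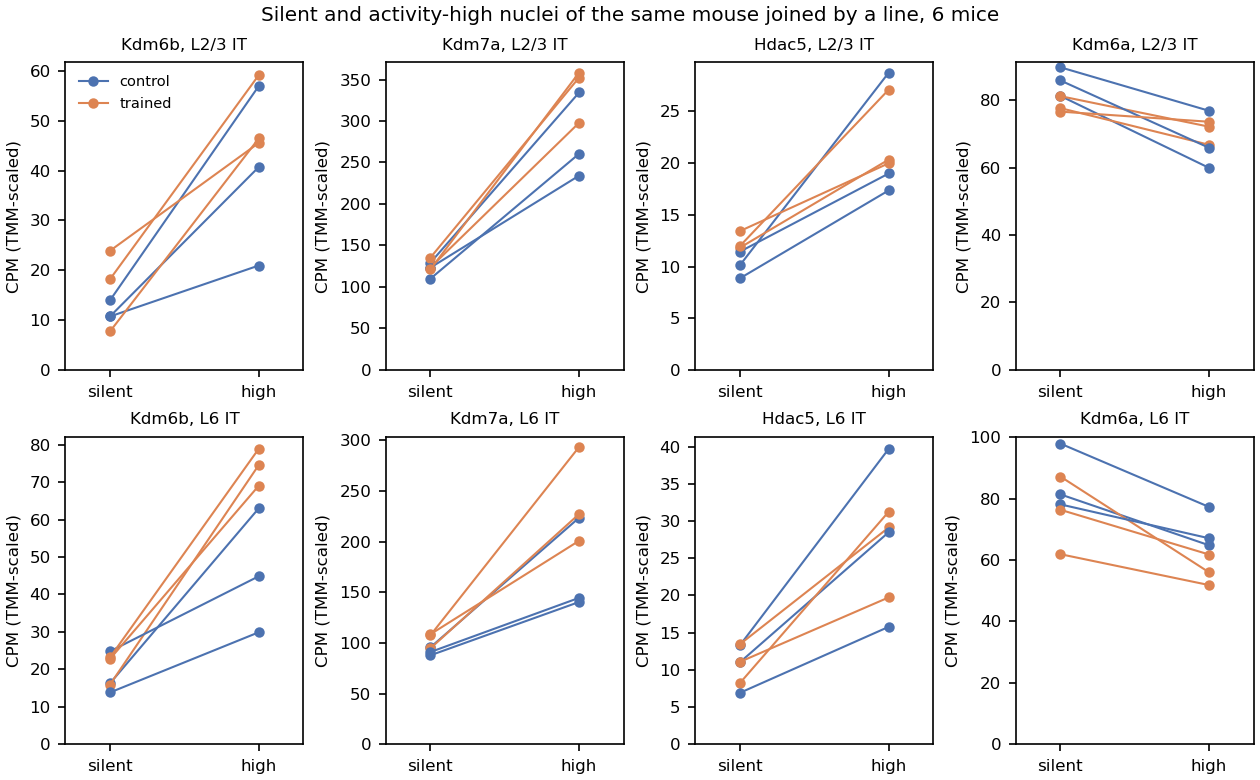
CPM of Kdm6b, Kdm7a, Hdac5 and Kdm6a in silent and activity-high nuclei of L2/3 IT and L6 IT, 1 line per mouse (n = 6). Kdm6b, Kdm7a and Hdac5 rise in all 6 mice of both classes, and Kdm6a falls in all 6 of both.

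The lower calls were smaller. Kdm6a, the paralog of Kdm6b, was lower in 6 of 6 mice in L2/3 IT (76.6 to 89.8 against 59.9 to 76.9 CPM, silent against activity-high, -0.27 ± 0.08) and in L6 IT (61.9 to 97.9 against 51.8 to 77.3 CPM, -0.34 ± 0.09), and was called in L4/5 IT or L5 IT (-0.32 ± 0.10). Hdac9 was lower in 6 of 6 mice in L4/5 IT (-0.32 ± 0.06), and its log2 fold was -0.25 ± 0.07 in L6 CT, -0.40 ± 0.11 in astrocytes and -0.45 ± 0.11 in Vip nuclei. Kmt2c was called lower in L6 CT (-0.24 ± 0.07), L4/5 IT or L5 IT (-0.24 ± 0.07) and Vip (-0.54 ± 0.15), and Kmt5a in L2/3 IT (-0.37 ± 0.11) and L6 IT (-0.41 ± 0.14). Hdac8 was called lower in L6 CT (-0.21 ± 0.07) and L6 IT (-0.25 ± 0.08), and Kdm4c in L4/5 IT (-0.25 ± 0.07) and L6 IT (-0.28 ± 0.08). Single lower calls were Kdm5d in L6 CT (-0.39 ± 0.11), Kdm3a in L5 ET (-0.40 ± 0.11), Hdac7 in L4/5 IT or L5 IT (-0.30 ± 0.09) and Hdac6 in Vip (-0.98 ± 0.30). In astrocytes, the log2 folds by state of the members that stood apart with training were 0.14 ± 0.09 for Kdm5b, -0.22 ± 0.10 for Hdac4 and 0.16 ± 0.13 for Kdm3a, none passing.

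Of the 41 calls, 27 had the same direction in all 6 mice. DESeq2 kept 16 and a threshold of 2 immediate early UMIs kept 30. In sums of thinned counts, which gave a value for 30 of the calls, 7 were kept. Calls that held under every alternative that gave a value numbered 9: Kdm6b in L2/3 IT, L6 IT, L6 CT and L5 ET, Kdm7a and Hdac5 in L2/3 IT and L6 IT, and Kmt2a in L6 IT. No lower call held under all of them. Of the 9, those of Hdac5 in both classes and of Kdm6b in L6 IT and L5 ET had no value in thinned sums. Activity-high nuclei were shallower than silent ones, with mean median UMIs of 9248 against 10171 in L2/3 IT and 5086 against 7049 in Vip. Oligodendrocyte markers were higher in them (130 against 85.0 CPM in L2/3 IT, 151 against 78.4 CPM in L6 IT), and the summed Vip markers went from 1886 to 4825 CPM in Vip nuclei. The part of depth, of other cells' RNA and of the makeup of the Vip class in these folds was not tested.

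Other chromatin genes were read from lists between the 2 states. Of the demethylases outside the rule, 8 of 69 gene and class tests were higher and 1 lower. Jmjd1c, a relative of Kdm3a, was higher in L6 IT (0.56), L2/3 IT (0.37), L6 CT (0.27) and L4/5 IT or L5 IT (0.25) and lower in Vip (-0.48). Jarid2, a Polycomb partner, was higher in L6 IT (0.80), L2/3 IT (0.60) and L4/5 IT or L5 IT (0.42). Histone acetyltransferases, which oppose the deacetylases, were lower in 6 of 109 tests and higher in 0. Corepressor subunits were higher in 8 and lower in 15 of 251, and other methyltransferases higher in 12 and lower in 10 of 287. COMPASS subunits were higher in 1 and lower in 3 of 94, those 3 being the member Kdm6a, and sirtuins were called in 0 of 55. The MEF2 and class IIa partners were higher in 30 and lower in 12 of 145 tests. Among them were Ywhag and Ywhaz, whose 14-3-3 proteins hold class IIa deacetylases in the cytoplasm, at 0.55 and 0.60 in L6 IT. These 4 genes were named after their values had been seen. Over all genes, 7.61% of tests were higher and 4.93% lower. Glucocorticoid response genes were higher in 29 and lower in 5 of 83 tests, and mitochondrially encoded genes higher in 22 of 56.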

How the data were processed

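The authors deposited 1 matrix of UMI counts per gene and nucleus, made with Cell Ranger 4.0.0 on mm10 per the file headers and the submitters' processing notes. The barcode suffix names the mouse, per the labels. The suffixes refer to the shallower of the sequencing runs of each mouse, and whether reads of the deeper runs are in the matrix is not given in the sources used here, nor is the use of strand or of intronic reads.

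Nuclei with at least 500 genes and under 5% mitochondrial UMIs passed (51683). Scrublet, with 6% expected doublets, marked 2391, which were left out. The rest were clustered without the members (scanpy 1.11.5, Leiden at resolution 1, 4704 variable genes, 30 components, 20 neighbours) and named from marker lists. Counts were summed per mouse and class and tested with edgeR 4.0.16 (quasi-likelihood, TMM, low-count filter, Benjamini-Hochberg over all genes of a class, threshold 0.05), with mouse as a block for classes, interaction and activity. The mouse is the replicate. P-values of the training tests weigh the difference of the groups against the spread between these animals. Those with mouse as a block weigh differences within mice against the spread that remains. For activity, nuclei were thinned to 2000 UMIs, which left out 9021 shallower nuclei, and the full counts of the classified nuclei were then summed. Levels across classes are CPM by library size; those by training or activity are scaled by TMM. Scripts were tested on simulated data. Of training changes of 2-fold, 82% were recovered in astrocytes and 77% in L2/3 IT. Of changes of 1.5-fold, 27% and 35% were recovered, so that training differences of this size can stay uncalled. False calls numbered 4 in astrocytes and 16 in L2/3 IT, where 100 genes were changed at each fold. Sparse genes were not among the changed ones, and no smaller class was simulated for training. Recovery of sparse genes and in smaller classes was not tested. Alternatives were DESeq2 1.42.0, other scaling, filters, covariates, clustering and each mouse left out.

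The members and gene lists were chosen with earlier results of these data known. Genes are named where they pass in the training, interaction or activity tests, where they are among the 12 training pairs of smallest p, where they have the 2 highest or 2 lowest called folds of a class, as list genes past the threshold with training, and Kdm5b and Kdm6b throughout. Classes with under 20 nuclei in a mouse were not fitted.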

Additional observations from a re-analysis of the deposited data

Results flagged for a closer look

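For 3 members the difference between trained and control mice was not the same in astrocytes as in the other nuclei of these mice, by the interaction of class and training in edgeR. The astrocyte difference exceeded that of the rest by 1.21 on the log2 scale for Hdac4, by 0.90 for Kdm5b and by 0.71 for Kdm3a. With each mouse left out in turn these values lay between 0.95 and 1.46 for Hdac4, 0.85 and 0.98 for Kdm5b, and 0.46 and 0.87 for Kdm3a. Hdac4 and Kdm5b passed in every one of these fits and with library size scaling, and Kdm3a was lost in 3 settings. Each fit gave a gene a single spread, shared by the astrocyte sums and the larger sums of the rest. The rest joined all other classes, and deeper nuclei weigh more in it. Within classes, the Hdac4 difference was above 0 in 6 of 18, astrocytes included. It was 0.72 ± 0.27 in vascular and leptomeningeal nuclei and did not pass there.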

How the results depend on the processing

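No paired analysis was possible because the control and trained mice share no replicate number. The count of members called with training within classes (1) was 2 with DESeq2, 3 without the low-count filter and 0 with the mitochondrial percent as a covariate. It lay between 0 and 3 with 1 mouse left out: 0 without control mouse 1 or 5, and 3 without trained mouse 4. In all nuclei it was 0 under all alternatives, also without the unnamed nuclei, a setting chosen after seeing the data. The interaction count (3) lay between 2 and 5 with 1 mouse left out, with 5 without control mouse 3. The class count (408) lay between 370 and 390 with 1 mouse left out and was 431 with library size scaling. The activity count (41) was 7 in thinned sums, 16 with DESeq2 and 33 with 2 or more immediate early UMIs, and lay between 27 and 37 with 1 mouse left out, lowest without trained mouse 2. Thinned sums hold fewer counts and tested fewer genes. The cause of the changed counts of calls was not tested for any setting. Over all genes, astrocyte training calls (24) were 57 with DESeq2, 231 without the filter, 14 with median UMIs as a covariate, 5 with the mitochondrial percent and 14 with doublets kept. With 1 mouse left out they lay between 3 and 74: leaving out control mouse 5, 1 or 3 gave 3, 9 or 44 calls, and leaving out trained mouse 6 or 4 gave 10 or 74. Activity calls in L2/3 IT (1688) were 461 in thinned sums and 783 with DESeq2, and astrocyte interaction calls (92) were 52 with library size scaling, 52 without trained mouse 6 and 226 without control mouse 3.

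Alternatives of single training differences were run for Kdm5b and Kdm6b in each class and for the pairs of smallest p. Among these, the ones that changed sign were uncalled values of Kdm5b and Kdm6b. With median UMIs as a covariate, the Kdm5b difference was -0.0041 in L2/3 IT, -0.022 in L5 ET, -0.0089 in L5/6 NP, 0.014 in Pvalb and 0.0053 in the Scn7a cluster, and that of Kdm6b 0.11 in Sst and 0.084 in vascular and leptomeningeal nuclei. With the mitochondrial percent, Kdm5b was at -0.0024 in L2/3 IT, -0.028 in L5 ET, -0.023 in L6 IT and 0.0018 in Pvalb, and Kdm6b at -0.0045 in astrocytes, 0.053 in Sst and 0.057 in vascular and leptomeningeal nuclei. Without the filter Kdm5b was at -0.0063 in L5/6 NP, and with doublets kept at 0.019 in the Scn7a cluster; Kdm6b with doublets kept was at -0.039 in oligodendrocytes. With 1 mouse left out, Kdm5b ranged from -0.0083 to 0.096 in L5 ET, -0.015 to 0.041 in L5/6 NP, -0.0078 to 0.052 in L6 IT, -0.0068 to 0.11 in Lamp5, -0.13 to 0.052 in oligodendrocyte precursors, -0.57 to 0.010 in pericyte and smooth muscle nuclei, -0.042 to 0.026 in Pvalb and -0.068 to 0.036 in the Scn7a cluster. Kdm6b ranged from -0.051 to 0.22 in astrocytes, -0.055 to 0.12 in L5/6 NP, -0.13 to 0.18 in L6 CT, -0.048 to 0.56 in oligodendrocyte precursors, -0.074 to 0.51 in oligodendrocytes, -0.14 to 0.14 in Sst and -0.18 to 0.10 in vascular and leptomeningeal nuclei. The cause was not tested.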

Other observations

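Classes too small for a fit were read as levels only. In differentiating oligodendrocytes (195 nuclei), Kdm6b, whose mean was lowest in mature oligodendrocytes among the fitted classes, was at 49.5 CPM in the lowest, 82.4 CPM in the median and 118 CPM in the highest mouse, on 84 UMIs. Kmt5a there was at 37.1 CPM in the lowest, 66.2 CPM in the median and 124 CPM in the highest mouse, on 70 UMIs, and Hdac1, a deacetylase needed for oligodendrocyte formation, was at 32.2 CPM in the lowest, 61.1 CPM in the median and 74.2 CPM in the highest mouse, on 62 UMIs. In L6b neurons (131 nuclei), Kdm5b was at 120.2 CPM in the lowest, 132 CPM in the median and 145 CPM in the highest mouse, on 227 UMIs, and Hdac4 at 106 CPM in the lowest, 136 CPM in the median and 268 CPM in the highest mouse, on 276 UMIs. No test was made on these values.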
